A study of Mus musculus with 8 samples.

Results

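The genes that copy DNA in S phase were measured in common myeloid progenitors (CMPs) of young and old mice. The set held 45 genes of 9 roles, from origin licensing to the supply of deoxynucleotides, chosen by gene name among the 34797 gene names of the array. They were read by 58 of 55681 probes, and 57 of these passed the filter on dim signal that left 33479 probes for testing. No replication gene passed the test for a difference between old and young CMPs, and 27 genes were higher and 18 lower in old CMPs. The median log2 difference, old minus young, was 0.02 over the 45 genes and -0.02 over all tested probes. Over all tested probes 15650 were higher and 17829 lower. One array of young CMPs, replicate 3, stood low for most of the genes, and without it 10 of the 45 were higher and 35 lower in old CMPs, with 17 changes of sign and still none called. Because the array stood low for these genes, leaving it out by itself moves their differences towards lower values in old CMPs. Without any other single array, 22 to 31 of the 45 were higher.

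CMPs are blood progenitors that give rise to granulocytes, monocytes, red cells and platelets. They were sorted from wildtype C57BL/6J mice that were kept pathogen-free and had received no treatment, and by the study's methods the gate took lineage-negative cells with c-Kit and CD34, without Sca-1 and with low Fcγ receptor. There were 4 arrays of young and 4 of old CMPs, each of 1 RNA sample labelled with 1 dye, and the labels give ages of 2 to 3 months for young and 22 to 24 months for old, while the series text gives 3 to 4 and 22 to 26 months. The study compared the ages to find pathways that change in ageing myeloid progenitors. Its methods describe fewer mice of each age than there are arrays, and the labels do not tie arrays to mice, so the tests measure the spread between arrays, which may in part be technical.

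DNA replication starts at origins that are licensed in G1, when the origin recognition complex, Cdc6 and Cdt1 load the ring of Mcm2 to Mcm7 onto DNA. At the start of S phase Cdc45 and the GINS complex join the ring to form the active helicase, and primase, polymerases, the sliding clamp and its loader then copy both strands. Transcription of many of these genes is switched on at the border of G1 and S by E2F factors, which cyclin E and its kinase help to release from the retinoblastoma protein. Progenitors of the marrow divide often, unlike the mostly resting stem cells above them. In RNA of a whole sorted population, fewer cells in S phase and less RNA per cell cannot be told apart.

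The best known sequence that replication genes share is the E2F site, and RefSeq promoters of build GRCm38.p6 were searched for it. The window of 300 bases ran from 250 bases before to 50 after each gene start, and the letters searched were TTTCCCGC, TTTCGCGC, TTTGCCGC and TTTGGCGC on both strands, where matches on opposite strands may overlap. A window was at hand for 37 of the 45 genes, and 13 of these 37 genes (35.1%) held at least 1 match, against 704 of all 27025 genes with a window (2.6%). Counted by window, 13 of 43 (30.2%) held a match, against 744 of 32851 (2.26%). The member windows were richer in G and C, with a median of 60.0% against 52.7%, and among the 9690 windows of all genes with at least 60.0% G and C, 416 (4.29%) held a match. These 9690 windows had a median of 66.7%, so they were richer in G and C than the member windows and not matched to them. By role, a match was found for 4 of the 5 MCM genes with a window, 3 of 5 licensing genes, 3 of 6 polymerase and primase genes, 1 of 4 genes of helicase activation, 1 of 5 clamp genes and 1 of 2 genes for Okazaki fragments, and for none of the 3 RPA genes, 5 nucleotide genes and 2 G1/S genes. A match is a description of the letters and not a bound site.

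Stretches of 6 promoters are shown because they carry these letters upstream of genes whose array values are given below: 3 helicase subunits, the loader Cdc6, the GINS subunit Gins3 and the polymerase subunit Pola1. All are read 5′ to 3′ on the strand of the gene in GRCm38.p6, with the matched letters in capitals. Mcm5 lies at chr8:75109336-75109387 on the plus strand and holds 2 matches that overlap on opposite strands, and Mcm6 at chr1:128359726-128359835 on the minus strand holds 3, of which 2 overlap in this way. The stretch of Mcm7 is chr5:138172021-138172068 on the minus strand, that of Cdc6 chr11:98907993-98908040 on the plus strand, that of Gins3 chr8:95633498-95633545 on the plus strand and that of Pola1 chrX:93632266-93632313 on the minus strand.
Mcm5: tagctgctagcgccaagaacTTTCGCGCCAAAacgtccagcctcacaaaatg
Mcm6: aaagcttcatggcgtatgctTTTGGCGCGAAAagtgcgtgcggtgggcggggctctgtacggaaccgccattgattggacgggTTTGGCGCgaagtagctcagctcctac
Mcm7: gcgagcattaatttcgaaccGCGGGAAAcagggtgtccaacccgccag
Cdc6: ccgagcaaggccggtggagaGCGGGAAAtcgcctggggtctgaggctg
Gins3: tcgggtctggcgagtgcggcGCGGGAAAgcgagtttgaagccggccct
Pola1: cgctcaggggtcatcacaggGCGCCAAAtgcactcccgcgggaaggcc

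The values of genes with and without a match are set side by side as a description. The 13 genes with a match had a median log2 difference of 0.04, with 8 higher and 5 lower in old CMPs and a range from -0.41 to 0.17, and without young replicate 3 they had -0.10, with 3 higher and 10 lower. The 24 genes with a window and no match had a median of 0.01, with 14 higher and 10 lower and a range from -0.33 to 0.31, and without that array -0.14, with 5 higher and 19 lower.

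The arrays were alike in brightness and detection. The 75th percentile of signal lay between 352 and 565 intensity units on young and between 290 and 518 on old arrays, and 55.6% to 63.2% and 57.3% to 60.5% of probes were well above background. No spot was saturated. All 4 genes of the CMP gate list, Cd34, Kit, Fcgr3 and Fcgr2b, were well above background on all 8 arrays, and none of the 4 was called. Of these genes 1, Kit, was higher and 3 were lower in old CMPs, with a median log2 difference of -0.29. Among marker lists of related cells, 14 of 14 megakaryocyte genes had more signal in old CMPs, by a median of 1.14 in log2 and with 1 called, and 9 of 9 tested granulocyte and monocyte genes had less, by a median log2 difference of -0.57 and with none called. The median level of the megakaryocyte genes, relative to each gene's mean over the arrays, ran from -1.09 to -0.31 on young and from 0.45 to 0.67 on old arrays, and their part in the values of the replication genes was not tested. Of the stem cell list 5 of 9 tested genes were higher and 1, the stem cell factor Hoxb5, was called, of the erythroid list 5 of 9 were higher, of the neutrophil list 1 of 5, and of the lymphoid list 0 of 6, with none called in the last 3 lists. On none of the 8 arrays was the B cell factor Pax5 well above background.

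Nearly all replication genes were detected on every array. The brightest probe of each gene was used for its value, and log2 signal is given relative to the 75th percentile of the array, so that 0 is that percentile. For 44 of the 45 genes the brightest probe was well above background on all 8 arrays. The exception was Ccne2, one of the cyclins E, which was well above background on 2 of 4 young and 4 of 4 old arrays. The heat map shows each gene on each array.

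**Figure D1:**
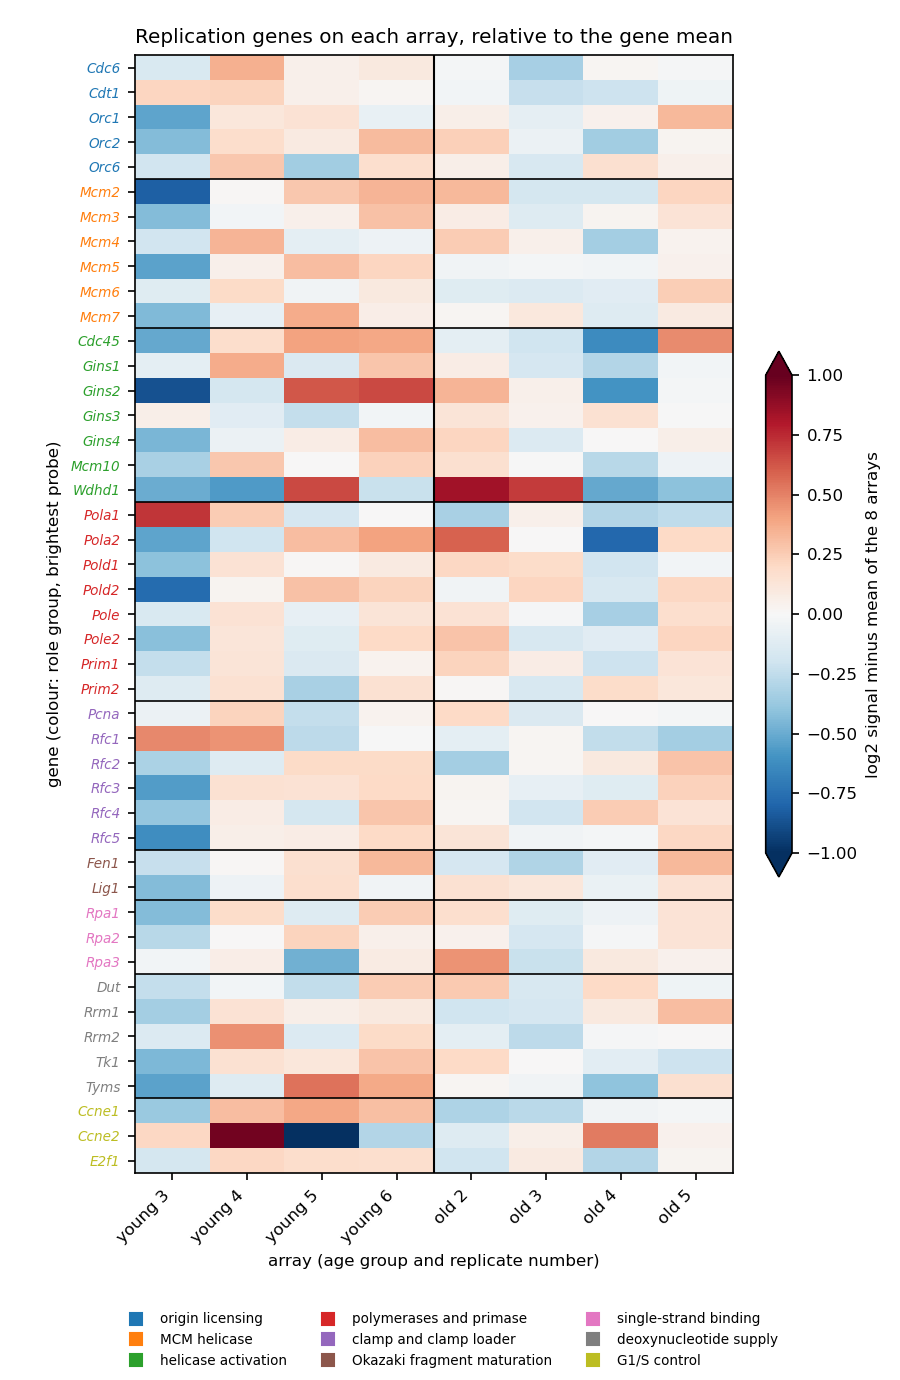
Heat map of the 45 replication genes (rows, grouped by role) on the 4 young and 4 old arrays (columns), coloured by log2 signal minus the gene's mean over the 8 arrays. Most rows are blue in the first column, young replicate 3, where 40 of the 45 genes lay below their mean, and the other columns do not separate by age.

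With a call defined as an adjusted p under 0.05 by limma and at least a 1.5-fold change, 0 of the 45 genes were called, against 64 of 33479 tested probes (0.191%). The smallest adjusted p among the genes, 0.927 by limma, belonged to Pola1. By unadjusted p under 0.05, 0 of the 45 genes passed by limma, against 2123 probes (6.34%). The arrays of young and old CMPs did not overlap for 1 of the 45 genes, Cdt1, against 1485 of all tested probes (4.44%). Neither of the last 2 counts was above the share over all probes.

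The 95% intervals give a range for each difference, given the spread between arrays, which may in part be technical. The 95% interval of the difference lay within 1.5-fold in both directions for 26 of the 45 genes, against 8289 of all tested probes (24.8%), and within 2-fold for 43. The exceptions at 2-fold were Ccne2 and Wdhd1. The observed log2 difference was smaller than 0.2 in size for 37 of the 45 genes. The standard error of the difference had a median of 0.20 over the genes and 0.25 over all tested probes, with each gene read by its brightest probe. These probes were brighter, with a median log2 level of 3.68 against -1.05, so the 24.8% is not a share of probes of like brightness. Without young replicate 3 the intervals of Orc2 (-0.68 to 0.22), Cdc6, Mcm10 and Tk1 left the 1.5-fold range. Those of Orc1 (-0.39 to 0.44), Pold2 and Rfc5 entered it.

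**Figure D2:**
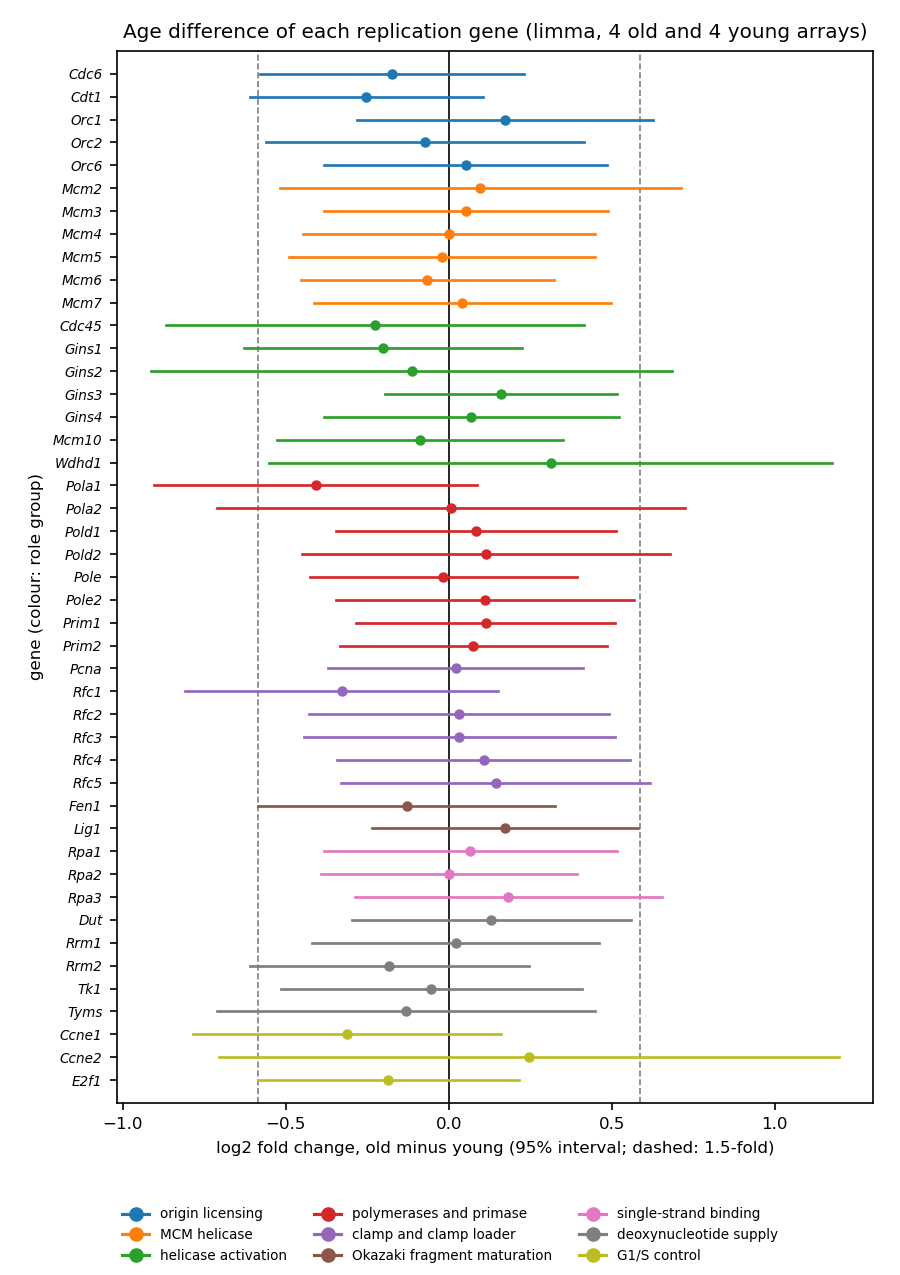
Log2 fold change, old minus young, of the 45 genes with 95% intervals from limma (4 young and 4 old arrays), coloured by role, with dashed lines at 1.5-fold. Every interval crosses 0, and the points run from -0.41 for Pola1 to 0.31 for Wdhd1.

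Origin licensing opened the series of roles with 5 genes and a median log2 difference of -0.07. Cdt1, which brings the MCM ring to origins and is destroyed once S phase begins, had log2 signals of 5.35, 5.36, 5.18 and 5.15 on young arrays 3 to 6 and 5.11, 4.91, 4.93 and 5.09 on old arrays 2 to 5. Every old array was below every young array. The means were 5.26 ± 0.11 and 5.01 ± 0.11 (SD, n = 4 each), and the log2 difference was -0.25 (95% interval -0.61 to 0.10, adjusted p = 0.985 by limma). The gene is described here because its ages did not overlap, so this separation was not tested further. The probe of Cdt1 lies at chr8:125096893-125096952 on the plus strand in mm9, the build of the array files.

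The other licensing genes overlapped between the ages. Cdc6, the ATPase that joins the origin complex before the helicase is loaded, had a log2 difference of -0.17. Among the subunits of the origin recognition complex, the log2 differences were 0.17 for Orc1, -0.07 for Orc2 and 0.05 for Orc6. Without young replicate 3 the median of the 5 licensing genes was -0.22, and the sign of Orc6 changed, to a difference of 0.00 at 2 decimals.

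The MCM helicase unwinds DNA at the fork, and its 6 subunits act in equal numbers in 1 ring. Their log2 differences lay between -0.07 and 0.10 with a median of 0.02, and for 5 of the 6 the 95% interval stayed within 1.5-fold. Of the 6 subunits 4 were higher and 2 lower in old CMPs, while without young replicate 3 none was higher and 6 were lower, with a median of -0.11. Mcm2, whose interval was the exception, had log2 signals of 3.81, 4.64, 4.89 and 4.96 on young and 4.95, 4.45, 4.45 and 4.84 on old arrays. The low value of young replicate 3 set its young mean, 4.58 ± 0.53, below its old mean, 4.67 ± 0.26 (SD, n = 4 each). The log2 difference of Mcm2 was 0.10 (95% interval -0.52 to 0.71), and without that array it was -0.16.

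Mcm3 read 5.78, 6.19, 6.27 and 6.51 on young and 6.29, 6.08, 6.24 and 6.35 on old arrays, in log2 signal. For Mcm4 the young arrays read 4.74, 5.28, 4.83 and 4.88 and the old arrays 5.19, 4.98, 4.59 and 4.97. Both genes overlapped fully, with log2 differences of 0.05 (interval -0.38 to 0.49) and 0.00 (interval -0.45 to 0.45). Mcm5 gave 5.20, 5.78, 6.04 and 5.95 on young arrays, while its old arrays lay close together at 5.69, 5.71, 5.71 and 5.78. The log2 difference of Mcm5 was -0.02 (interval -0.49 to 0.45), and it was -0.20 without young replicate 3, where the old arrays then lay below the remaining young ones.

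Mcm6 had log2 signals of 6.87, 7.18, 6.96 and 7.09 on young and 6.87, 6.85, 6.88 and 7.23 on old arrays. Its log2 difference was -0.07 (interval -0.45 to 0.32, adjusted p = 0.998 by limma). Mcm7 read 5.44, 5.81, 6.26 and 5.95 on young and 5.91, 5.99, 5.75 and 5.97 on old arrays, a log2 difference of 0.04 (interval -0.41 to 0.50). Young replicate 3 was the lowest of the 8 arrays for 4 of the 6 subunits, Mcm2, Mcm3, Mcm5 and Mcm7. The plot of the 6 subunits by age shows this array as a square.

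**Figure D3:**
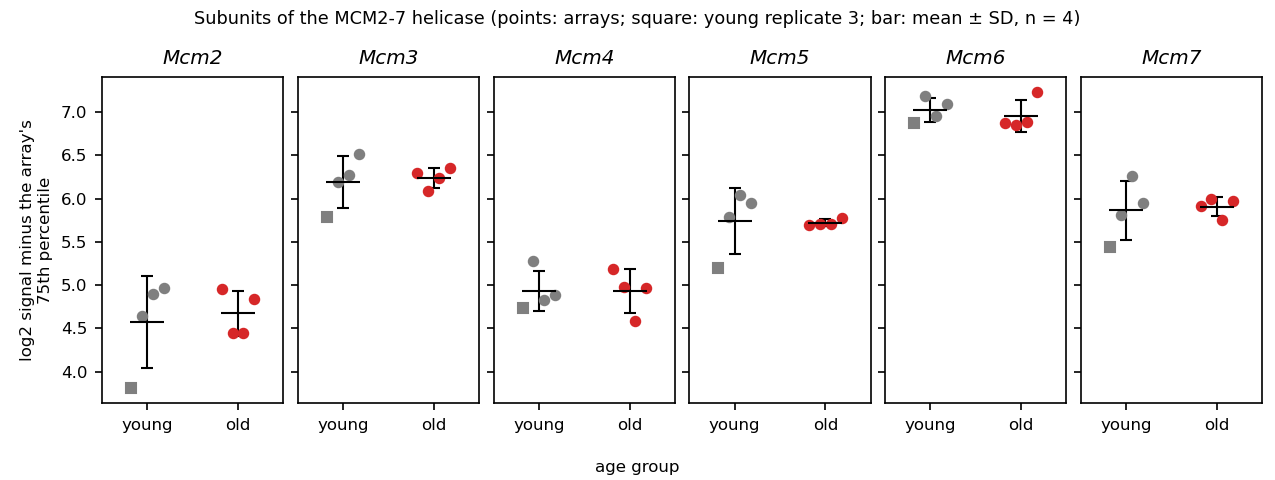
Log2 signal, with the 75th percentile of each array at 0, for Mcm2 to Mcm7 on 4 young (grey) and 4 old (red) arrays, with mean and SD; the square marks young replicate 3. The means of the ages differ by at most 0.10, and the square is the lowest young point for each subunit.

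Helicase activation was represented by 7 genes with a median log2 difference of -0.09. Gins1, a subunit of the GINS complex, read 2.45, 2.92, 2.40 and 2.83 on young and 2.63, 2.38, 2.26 and 2.52 on old arrays. Gins3, another subunit, read 6.48, 6.31, 6.18 and 6.39 on young and 6.55, 6.46, 6.57 and 6.42 on old arrays. The 2 subunits leaned opposite ways, with log2 differences of -0.20 (interval -0.63 to 0.22) for Gins1 and 0.16 (interval -0.20 to 0.51) for Gins3, and both overlapped between the ages.

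The remaining genes of helicase activation were more variable. Cdc45, which rides with the MCM ring at the fork, had a log2 difference of -0.23, Gins2 of -0.11, Gins4 of 0.07 and Mcm10, which helps to activate the loaded helicase, of -0.09. Wdhd1, a scaffold that ties the helicase to the polymerase with primase, had the highest log2 difference of all 45 genes, 0.31, with an interval from -0.55 to 1.18. Its arrays split within both ages, since young replicate 5 and old replicates 2 and 3 read 1.31 to 1.49 and the other 5 arrays 0.09 to 0.43. A second probe of Wdhd1 was well above background on 1 array and was not tested. Without young replicate 3 the median of the 7 genes was -0.21, and Gins4 changed sign, to -0.07.

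Polymerases and primase lay in the set with 8 genes, of which 6 were higher and 2 lower in old CMPs, with a median log2 difference of 0.08. Without young replicate 3 the counts were 2 and 6, with a median of -0.06 and changes of sign for Pola2, Pold1, Pold2 and Pole2. Pola1, the catalytic subunit of the polymerase that extends RNA primers, read 2.32, 1.86, 1.44 and 1.61 on young and 1.28, 1.65, 1.31 and 1.35 on old arrays. Young replicates 3 and 4 were above all old arrays, and the other young arrays overlapped with them. The log2 difference was -0.41 (0.754-fold, interval -0.90 to 0.09), the lowest of the 45 genes, with the adjusted p of 0.927 by limma. Without young replicate 3, the highest array for this gene, it was -0.24.

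Pold1, the catalytic subunit of the lagging-strand polymerase delta, read 4.24, 4.79, 4.66 and 4.73 on young and 4.85, 4.83, 4.45 and 4.62 on old arrays. Its log2 difference was 0.08 (interval -0.35 to 0.51), and the ages overlapped. The other polymerase genes had log2 differences of 0.01 for Pola2, 0.11 for Pold2, -0.02 for Pole, the catalytic subunit of the leading-strand polymerase, and 0.11 for Pole2. The primase subunits had 0.11 for Prim1 and 0.08 for Prim2. A second probe of Prim2 gave -0.36, which was the widest gap between 2 probes of one gene.

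The sliding clamp Pcna holds polymerases on DNA, and the 5 Rfc subunits load it. Pcna read 5.89, 6.18, 5.72 and 5.99 on young and 6.15, 5.81, 5.96 and 5.94 on old arrays, with means of 5.94 ± 0.19 and 5.97 ± 0.14 (SD, n = 4 each). The log2 difference was 0.02, and its interval, -0.37 to 0.41, stayed within 1.5-fold. Rfc1, the largest subunit of the loader, read 3.27, 3.23, 2.52 and 2.78 on young and 2.69, 2.81, 2.54 and 2.45 on old arrays. Its 2 high arrays were the same as for Pola1, young replicates 3 and 4, and its log2 difference was -0.33 (interval -0.81 to 0.15, adjusted p = 0.994 by limma).

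For the smaller subunits of the loader, all 8 arrays gave small positive values. The log2 differences were 0.03 for Rfc2, 0.03 for Rfc3, 0.11 for Rfc4 and 0.14 for Rfc5. All 4 had their lowest young value on replicate 3, the array on which Rfc1 had its highest. Without that array the 4 differences were -0.07, -0.15, 0.00 (negative before rounding) and -0.04, and that of Rfc1 was -0.22, so that all 5 had the same sign.

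Joining of Okazaki fragments was represented by 2 genes. Fen1, the nuclease that trims their flaps, read 5.22, 5.47, 5.61 and 5.78 on young and 5.29, 5.15, 5.34 and 5.78 on old arrays, with a log2 difference of -0.13 (interval -0.59 to 0.33). Lig1, the ligase that seals the nicks, read 4.63, 5.02, 5.23 and 5.03 on young and 5.22, 5.17, 4.996 and 5.21 on old arrays, with a log2 difference of 0.17 (interval -0.24 to 0.58). The ages overlapped for both.

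Replication protein A coats single-stranded DNA behind the helicase. Rpa1, its large subunit, read 5.04, 5.66, 5.34 and 5.72 on young and 5.64, 5.35, 5.42 and 5.61 on old arrays. Rpa3, the smallest, read 3.80, 3.89, 3.35 and 3.91 on young and 4.28, 3.60, 3.93 and 3.87 on old arrays. Log2 differences were 0.07 (interval -0.38 to 0.52) for Rpa1, 0.00 for Rpa2 and 0.18 (interval -0.29 to 0.65) for Rpa3, and the ages overlapped for the 3 genes. Without young replicate 3 they were -0.07, -0.09 and 0.20.

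Deoxynucleotide supply held 5 genes with a median log2 difference of -0.05. Rrm2, the small subunit of ribonucleotide reductase, which makes deoxynucleotides and whose level rises in S phase, read 4.61, 5.20, 4.61 and 4.94 on young and 4.65, 4.49, 4.73 and 4.75 on old arrays. Its log2 difference was -0.18 (interval -0.61 to 0.25), with the ages overlapping. The large subunit Rrm1 had 0.02, thymidine kinase Tk1 -0.05, thymidylate synthase Tyms -0.13 and Dut, the dUTPase that keeps uracil out of DNA, 0.13. Without young replicate 3 the median of the 5 genes was -0.21, and Rrm1 changed sign, to -0.09.

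The switch from G1 to S was represented by 3 genes with a median log2 difference of -0.19. Ccne1, a cyclin E that drives entry into S phase, read 2.87, 3.55, 3.62 and 3.54 on young and 2.94, 2.97, 3.21 and 3.22 on old arrays. Apart from young replicate 3, which was the lowest of the 8, the young arrays were above every old array. The log2 difference was -0.31 (0.805-fold, interval -0.79 to 0.16, adjusted p = 0.998 by limma), and without young replicate 3 it was -0.49 (adjusted p = 0.611 by limma). E2f1, the activating factor of the family whose site was searched above, had a log2 difference of -0.19, and Ccne2, the dim member, 0.24 with an interval from -0.71 to 1.20.

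Young replicate 3 departed from the other arrays across the roles. It was the lowest of the 8 arrays for 23 of the 45 genes, against 19.0% of all probes, and lay below the gene's mean for 40 of the 45. The median deviation of the 45 genes from their means was -0.34 on this array and between -0.11 and 0.19 on the other 7. Over all tested probes the median deviation on the same array was 0.00, and over probes at least as bright as the median replication gene it was -0.07. Each of the 9 role groups had its lowest young median on this array, and the G2/M list, of genes for mitosis, stood at -0.31 there. The lists of other replication factors, other nucleotide supply and other G1/S genes, described below, stood at -0.13, -0.09 and -0.25 there. The list of other replication factors was lower on old replicate 4, at -0.15. Genes of the G2/M list differed. Mki67 and Cenpe had their highest value of the 8 arrays on young replicate 3, at 3.55 and 1.57, and Cdc20 and Aurka their lowest, at 4.04 and 3.51. The departure kept its sign under other scalings, at -0.23 with quantile normalization, -0.46 with a shift to the median and -0.31 with normexp background correction. Its detection, at 63.2% of probes, was the highest of the 8 arrays. The erythroid list stood at 0.21 there, against -0.29 to -0.14 on the other young arrays and -0.46 to 0.79 on old arrays. Genes of that list differed, since the globin gene Hba-a1 had its highest value of the 8 arrays there, at 2.21, and Gata1 its lowest, at 3.51. The reason for the departure of young replicate 3 was not tested.

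**Figure D4:**
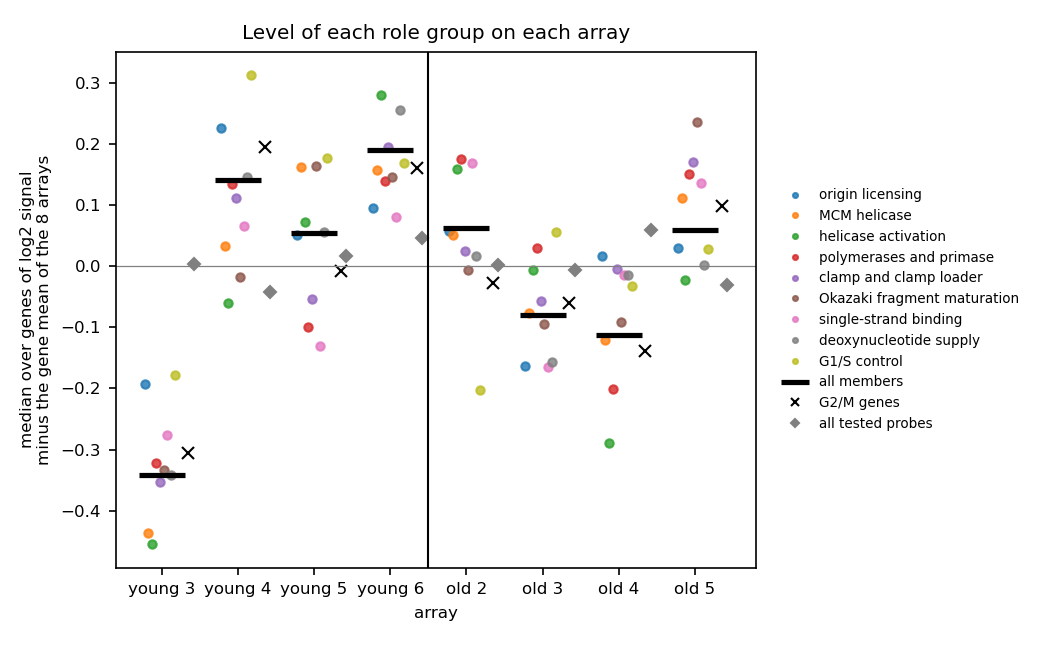
Median over the genes of each role group of log2 signal minus the gene's mean over the 8 arrays, with the median of all 45 genes (black bar), of the G2/M list (cross) and of all tested probes (diamond), on each array. The bar stands at -0.34 on young replicate 3 and between -0.11 and 0.19 elsewhere, while the diamonds stay near 0.

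The direction of the set as a whole changed with this array. Without it, the median log2 difference was -0.09, against -0.03 over all tested probes, where 18492 of 33479 were lower. None of the 45 genes was called without it, the smallest adjusted p being 0.611 by limma for Ccne1, and 1 gene had an unadjusted p under 0.05 (2.22%, against 6.02% of all probes). The ages then did not overlap for 6 of the 45 genes (13.3%, against 6.94% of all probes): Cdc6, Cdt1, Mcm5, Ccne1 and E2f1 were lower and Gins3 higher in old CMPs. Young replicate 3 stood low for most of the 45 genes, so leaving it out by itself favours separations with old CMPs lower. The shares are therefore not a like comparison, and the separations were not tested. For Mcm5 the highest old value was 5.776 and the lowest remaining young value 5.782. The spread between young arrays was also wider with this array, since the SD was larger in young than in old for 33 of the 45 genes with it and for 21 without it.

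**Figure D5:**
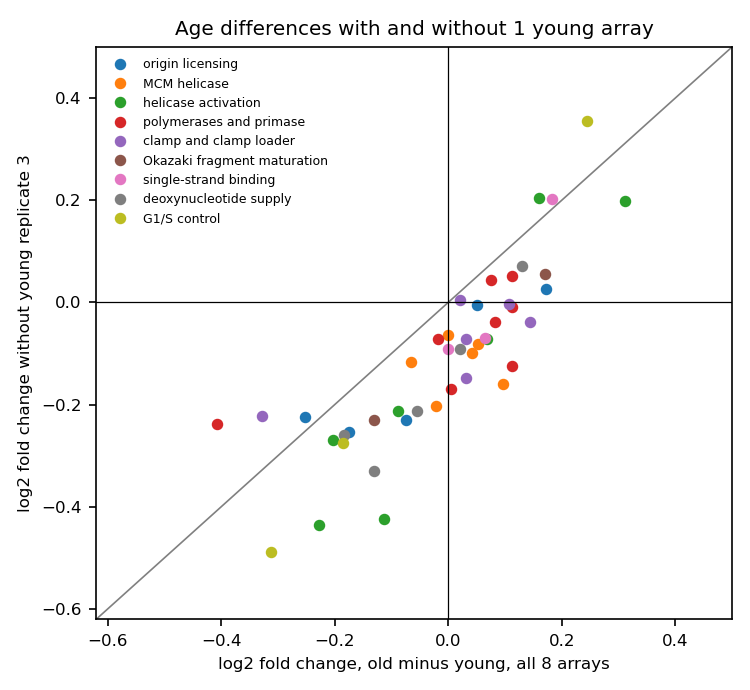
Log2 fold change, old minus young, of the 45 genes from all 8 arrays (x axis) and without young replicate 3 (y axis), coloured by role; the grey line marks equal values. Most points lie below the line, and 35 of the 45 lie below 0 on the y axis against 18 on the x axis.

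The arrays came from 2 slides, each with 2 young and 2 old arrays and each scanned in 1 session. Within slide 1, which held young replicate 3, the median log2 difference of the 45 genes was 0.14, with 30 genes higher in old CMPs, and within slide 2 it was -0.08, with 13 higher. With slide as a block the median was 0.02 and none of the 45 was called. Between scalings, a shift to the median moved the median difference of all probes to 0.10 and that of the 45 genes to 0.14, so that the 45 genes stood 0.04 above all probes as they did with the 75th percentile, while under quantile normalization they stood at -0.03 relative to them.

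Of the 45 genes, 10 had more than 1 tested probe, which gave 12 pairs of a brightest and another probe. The differences between the ages had the same sign in 10 pairs. The pairs of opposite sign were those of Mcm3, with 0.05 and -0.05, and Prim2, with 0.08 and -0.36.

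Lists of neighbouring genes, read from all 8 arrays, place these values in the wider cell cycle. Of 35 tested genes among 37 other replication factors, such as further origin, fork and chromatin assembly proteins, 13 were higher and 22 lower in old CMPs, with a median log2 difference of -0.11 and none called. Atad5, which unloads the clamp from DNA, had the smallest p of that list, with means of -0.08 ± 0.45 in young and -0.74 ± 0.17 in old CMPs (SD, n = 4 each) and a log2 difference of -0.67 (adjusted p = 0.567 by limma). Of 15 other genes of nucleotide supply, 10 were higher and 5 lower with a median of 0.07, led by p by the deoxycytidine kinase Dck at -0.33. Of 22 other G1/S genes, 14 were higher and 8 lower with a median of 0.04, led by E2f2, a relative of E2f1, at -0.27. None of these genes was called.

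Genes of mitosis had a median near that of the replication genes. Of 19 tested among 20 G2/M genes, 12 were higher and 7 lower with a median log2 difference of 0.02 and none called. The differences ran from -0.54 for Mki67 to 0.39 for Ube2c. Aurkb, a kinase of chromosome segregation, had the smallest p, with young arrays at -1.48, -1.25, -1.56 and -1.30 and old arrays at -1.66, -1.97, -2.01 and -1.69. Its ages did not overlap, and the log2 difference was -0.44 (adjusted p = 0.674 by limma). It was 1 of the 19 genes without overlap, against 4.44% of all tested probes. Aurkb was named for its p, so this separation was not tested further.

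Inhibitors of cyclin-dependent kinases, which hold cells before S phase, had the largest median of the lists of the cell cycle. Of 7 genes, 5 were tested, and all 5 had positive log2 differences with a median of 0.54. An unadjusted p under 0.05 was found for 3 of the 5, against 6.34% of all tested probes, and none was called. Cdkn1c, which encodes p57, read -1.08, -1.14, -0.70 and -0.66 on young and 0.10, -0.05, -0.27 and -0.35 on old arrays. Every old array was above every young array, with a log2 difference of 0.75 (1.68-fold, interval 0.31 to 1.19, adjusted p = 0.255 by limma). It was 1 of the 5 tested genes without overlap, against 4.44% of all tested probes. Cdkn1c had the smallest p of the list, so this separation was not tested further. Cdkn2c, for p18, had 0.81 (adjusted p = 0.528 by limma) and Cdkn2d, for p19, 0.54 (adjusted p = 0.678 by limma), while Cdkn1a had 0.23 and Cdkn1b 0.05. By their brightest probes, Cdkn2a was well above background on 1 young array and Cdkn2b on 0 young and 3 old arrays, a second probe of Cdkn2b was so on 1 young array, and neither gene was tested. The megakaryocyte genes, whose levels on the arrays are given above, were higher on the same 4 arrays, and their part in the values of these inhibitors was not tested.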

How the data were processed

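RNA of sorted CMPs was measured on 8 Agilent arrays of 62976 spots, 4 young and 4 old by their labels, from 0.1 µg RNA each. The authors scanned the slides with Feature Extraction 10.7.3.1, and each deposited file gives background-corrected intensity per spot on a linear scale, with probe positions in mm9. The authors also deposited a series-wide matrix of log2 values, processed in GeneSpring according to the methods, which follows the scanner values once each probe is centred on its median over the arrays (Pearson's r of 0.999 on every array, slopes near 1, column medians from -0.11 to 0.146), so that its scale, centring and direction are known, and which served as an alternative.

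Control spots were left out, signals were put on the log2 scale, and each array's 75th percentile over the remaining spots was subtracted. Outlier spots were then left out, and the other spots of a probe were averaged. Probes well above background on at least 4 arrays were tested with lmFit and eBayes in limma 3.58.1 (R 4.3.3, data.table in version 1.17.8), old minus young without covariates, with Benjamini-Hochberg adjustment over all 33479 probes. A gene stands by its brightest probe. Levels of probes of different genes are not comparable as amounts of RNA. Brightness was used to choose probes, to describe how bright the set was and to form the set of bright probes set beside young replicate 3. Calls needed an adjusted p under 0.05 and at least 1.5-fold. The fit was tested on simulated data. Arrays have no sequencing depth, so precision rests on how many arrays there were and how bright a probe was.

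The 45 genes, the role groups, the other lists and the motif were chosen with earlier results of these data known. Values on every array are given for the gene with the smallest p and that with the brightest probe in each role group, for Mcm2 to Mcm7, for genes whose ages did not overlap, and for the leading genes of other lists. Alternatives covered background correction, scaling, filter, slide, array weights, the test and leaving out each array. Replicate numbers 3, 4 and 5 occur in both ages, but deviations of arrays with the same number correlated at -0.0928, -0.141 and 0.148, so the numbers were not taken to pair the samples.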

Additional observations from a re-analysis of the deposited data

Results flagged for a closer look

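In 5 of the 92 sets of 4 arrays examined, one array stood far from the other 3 by Dixon's criterion, which chance alone meets in about 1 of 20 sets. Young replicate 3 was the low array for Rfc3, a subunit of the clamp loader, at a log2 signal of 0.89 against 1.59 for the nearest, for Ccne1 at 2.87 against 3.54, and for E2f1 at 2.94 against 3.28. Old replicate 3 was low for Cdc6, at 1.23 against 1.54. Old replicate 5 was high for Mcm6, at 7.23 against 6.88.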

How the results depend on the processing

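None of the 45 genes was called under an alternative with adjustment, and by the methods' t-test without it 0 of the 45 and 1051 probes passed at 1.5-fold, with Cdt1 alone among the 45 having a p under 0.05 at any fold (adjusted p = 0.698). Their median log2 difference lay between -0.09 and 0.14 over 20 alternatives. The count of all probes called, 64, was 104 with normexp, 28 without the filter, 40 with a filter on all 8 arrays, 39 with slide as a block, 101 with intensity trend and robust variances, 189 with array weights, 1592 with limma's unadjusted p, 0 with the methods' t-test after adjustment, 0 on slide 1 only and 0 on slide 2 only. Leaving out 1 array in turn gave 27 to 43. With the replicate block it was 13. Direction was less stable for single genes: the sign of the difference changed for 17 of the 45 without young replicate 3, for 18 on slide 2 only, for 14 with array weights, where 32 of the 45 were lower in old CMPs, and for at most 8 under the other alternatives. The largest difference among the genes that changed sign was 0.31 in size (Wdhd1 on slide 2 only). With 4 arrays per age, differences well under 1.5-fold could not be resolved, and many larger ones were not called either. Cdkn1c, at 1.68-fold, had an adjusted p of 0.255 by limma. Of the 14 megakaryocyte genes, all above 1.5-fold, 1 was called.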
